A study of Mus musculus with 14 samples.

Results

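Of 4961 merged regions of Sin3A and Sin3B peaks that could be placed against genes in C2C12 cells, 559 (11.3%, 95% Clopper-Pearson interval 10.4 to 12.2%) lay more than 10 kb from every start of a protein-coding gene. These far regions are described here, with the other 4402 placed regions for comparison. Chromatin immunoprecipitation and sequencing had mapped both proteins in C2C12, a mouse muscle line of C3H background, and the deposited peaks form 4 distinct lists: Sin3A in myotubes (759 peaks), Sin3A in myoblasts (691 peaks), Sin3B in myotubes (3769 peaks) and Sin3B in myoblasts (2387 peaks). For myotubes, cells at confluence had been put in 2% horse serum, and those that had not differentiated were taken off with dilute trypsin. Myoblasts had been kept growing in 10% fetal bovine serum. The labels name 11 immunoprecipitation samples (2, 2, 5 and 2 in the order of the lists) and 3 inputs, not analysed here. Within a group the files did not differ by a byte, so each group gave 1 list and no spread between cultures could be measured. The labels give the antibodies to the 2 proteins 1 catalogue number, and 1 of the 2 Sin3A myoblast samples had an antibody lot that no Sin3A myotube sample had.

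Peaks of all lists that shared at least 1 bp were merged, which gave 5137 regions. The gene table used was of mouse assembly GRCm38.p6. As deposited, 9.23% of the 7606 peaks had a protein-coding start of it within 1 kb, which is why the peaks had to be moved. In each 10-Mb block this was done with the 1 shift that put most of their centres within 1 kb of a start, and 256 of 267 blocks, those in which this reached 50%, were kept. In the kept blocks 80.5% of peaks then lay within 1 kb of a start. The shift had been chosen for that, so this share is no result, and neither is the 11.3%. Neighbouring blocks received shifts within 2 kb of each other in 134 of 222 pairs (60.4%), and the 15 blocks of chromosome 6 all received 49 to 51 kb. In some kept blocks a different shift did as well or nearly so, and distances there are uncertain. The best and the next shift placed 29 and 28 of 57 peaks in a block of chromosome 4, and 18 and 17 of 34 in a block of chromosome 13. In the block of chromosome 2 that holds Nr4a2 (described below) both placed 9 of 16. A stricter set of 297 far regions is called anchored: on each side, at least 1 of the 2 next regions lay within 1 kb of a start under the same shift. Where the fitting shift changes inside a block, a distance can be off by the gap between the shifts. A check added after the data were seen therefore moved each far region by the shifts of both neighbouring blocks and by a shift fitted on the next 5 regions on either side. It put 141 of the 559 far regions (25.2%) within 1 kb of a start, 13 of the 297 anchored ones (4.38%) and 128 of the other 262 (48.9%). By list these were 16 of 42 far regions for Sin3A in myotubes (38.1%), 17 of 229 for Sin3A in myoblasts (7.42%), 105 of 243 for Sin3B in myotubes (43.2%) and 59 of 197 for Sin3B in myoblasts (29.9%). They are called doubtful, and results are also given without them. Positions below are those of the deposited files, counted from 1, whose build neither the labels nor the files name.

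Sin3A and Sin3B are related scaffold proteins without a DNA-binding domain. Transcription factors bring them to chromatin together with histone deacetylases, which remove acetyl groups from histones and in most settings lower transcription. Both have been studied in muscle, where the switch from dividing myoblasts to fused myotubes silences cell cycle genes and turns on genes of the contractile apparatus. Most of their binding is known to lie at gene starts, while sites far from starts can be enhancers, starts of non-coding RNA genes or starts that an annotation lacks.

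Some far regions lay at or near the genes of small regulatory RNAs. A microRNA hairpin lay within 1 kb of 8 of the 559 far regions (1.43%, 0.620 to 2.80%), all of them anchored and none doubtful, and of 29 of the 4402 other regions (0.659%, 0.442 to 0.945%), beside 0.746% of all placed regions. These intervals overlap, and the counts are small. The 8 regions lay within 1 kb of 7 hairpin genes, which is what "at" a hairpin gene means below. The 14 mature sequences of these genes had 14 different seeds, so no seed was held in common. The sequences are shown because they name the products of these genes. They are from RefSeq on GRCm38.p6, written 5′ to 3′, and capitals mark the seed (bases 2 to 8).
mmu-miR-199a-5p: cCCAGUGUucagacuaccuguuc
mmu-miR-199a-3p: aCAGUAGUcugcacauugguua
mmu-miR-193a-5p: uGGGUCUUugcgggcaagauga
mmu-miR-193a-3p: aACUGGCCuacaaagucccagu
mmu-miR-21a-3p: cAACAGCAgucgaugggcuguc
mmu-miR-21a-5p: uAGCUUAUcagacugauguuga
mmu-miR-6516-5p: uUUGCAGUaacagguguggaca
mmu-miR-6516-3p: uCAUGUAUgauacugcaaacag
mmu-miR-7b-5p: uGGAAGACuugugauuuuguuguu
mmu-miR-7b-3p: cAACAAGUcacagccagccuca
mmu-miR-760-3p: cGGCUCUGggucugugggga
mmu-miR-760-5p: cCCCUCAGgccaccagagcccgg
mmu-miR-125b-5p: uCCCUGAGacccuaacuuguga
mmu-miR-125b-1-3p: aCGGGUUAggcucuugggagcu

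At 4 of these hairpin genes the region had a Sin3B peak in myoblasts and none in the other lists. The peak at Mir199a-2 (chr1:164147892-164148259, 368 bp) also lay about 0.45 kb from the start of Dnm3os, the long non-coding RNA that carries this microRNA on the opposite strand of Dnm3, and its nearest protein-coding start was 236 kb away. The peak at Mir21a (chr11:86398647-86399503) was 857 bp wide and lay inside Vmp1, whose 3′ part is known to hold this widely expressed microRNA. The peak at Mir125b-1 (chr9:41389425-41389906, 482 bp) was 329 kb from the nearest protein-coding start. miR-125b is known in mouse as a brake on myoblast differentiation that targets Igf2. The peak at Mir6516 (chr11:116937825-116938491, 667 bp) was at the start of Snhg20, a small nucleolar RNA host gene.

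In myotubes, peaks lay at Mir193a and Mir760. Mir193a had a pair of regions, 1 at chr11:79524663-79525402 with a peak of 709 bp for Sin3A and of 562 bp for Sin3B, and 1 at chr11:79525947-79526429 with a Sin3B peak of 483 bp. Neither had a peak in a myoblast list. The region at Mir760 (chr3:121996219-121996620) held a Sin3B peak of 402 bp. At Mir7b, which lies in the long non-coding RNA A230051N06Rik (chr17:56381303-56381802), 3 lists had a peak, and Sin3A in myotubes was the list without one.

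Starts of long non-coding RNA (lncRNA) genes lay within 1 kb of 32 of the 559 far regions (5.72%, 3.95 to 7.99%) and of 490 of the 4402 other regions (11.1%, 10.2 to 12.1%), where 10.5% of all placed regions had one. The share of far regions was thus the lower one. Without doubtful regions it was 29 of 418 (6.94%). Among anchored far regions it was 25 of 297 (8.42%, 5.52 to 12.2%), and it ranged from 7 of 164 with a Sin3A myoblast peak (4.27%, 1.73 to 8.60%) to 15 of 89 with a Sin3B myotube peak (16.9%, 9.75 to 26.3%). Several of these genes are hosts of small nucleolar RNAs. Snhg7 (chr2:26495298-26495910) and Snhg8 (chr3:123211455-123211998) had Sin3B peaks in myotubes alone, of 613 and 544 bp. Snhg20 (above) had a Sin3B peak in myoblasts alone, and Snhg17 (chr2:158186695-158187310) a Sin3A peak of 616 bp in myoblasts alone. Oip5os1, known as cyrano, a lncRNA that directs the decay of miR-7, had a Sin3B myotube peak of 410 bp (chr2:119419988-119420397). Morrbid, a lncRNA known in mouse for its control of the survival of myeloid cells, had a Sin3B myotube peak of 463 bp (chr2:128254301-128254763).

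The promoter table held promoters of 17 lncRNA genes at anchored far regions, and the nearest promoter was taken for each gene, 250 bases before to 50 after a start. The dinucleotide CG, which reads the same on both strands and cannot overlap itself, occurred a median of 15 times in them, beside 7 times over all 32851 promoters of the table, and 12 of the 17 were above that median. No such count is given for promoters at other placed regions, so these values do not set far regions apart from them. Shown here are a promoter rich in CG, one close to the median of the 17 and one poor in it, from RefSeq on GRCm38.p6, with CG in capitals. Snhg8 (minus strand) had 30, a number that 11.7% of all promoters reach, Oip5os1 (plus strand) had 15, reached by 34.6%, and Dnm3os (plus strand) had 5, reached by 62.0%. The peaks themselves are not shown, since no genome of the files' build was used here.
Snhg8 promoter: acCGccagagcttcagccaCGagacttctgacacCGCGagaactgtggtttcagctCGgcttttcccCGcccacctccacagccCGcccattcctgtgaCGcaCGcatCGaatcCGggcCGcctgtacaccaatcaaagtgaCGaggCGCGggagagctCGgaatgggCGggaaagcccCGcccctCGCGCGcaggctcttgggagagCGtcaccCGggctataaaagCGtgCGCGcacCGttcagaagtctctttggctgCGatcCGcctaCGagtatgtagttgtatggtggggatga
Oip5os1 promoter: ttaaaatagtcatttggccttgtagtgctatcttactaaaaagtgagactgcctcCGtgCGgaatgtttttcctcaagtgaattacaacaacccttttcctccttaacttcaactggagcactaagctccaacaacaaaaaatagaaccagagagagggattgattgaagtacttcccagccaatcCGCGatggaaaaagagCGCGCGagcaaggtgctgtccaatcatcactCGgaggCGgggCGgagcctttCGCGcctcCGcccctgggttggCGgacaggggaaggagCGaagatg
Dnm3os promoter: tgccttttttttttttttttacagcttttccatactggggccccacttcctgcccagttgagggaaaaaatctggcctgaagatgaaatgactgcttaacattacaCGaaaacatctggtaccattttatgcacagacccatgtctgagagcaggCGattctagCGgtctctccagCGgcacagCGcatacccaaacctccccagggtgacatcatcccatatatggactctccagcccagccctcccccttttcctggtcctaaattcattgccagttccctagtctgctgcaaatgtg

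How large a part of each list lay far from gene starts differed between the lists. Of placed regions with a Sin3A myotube peak 42 of 728 were far (5.77%, 4.19 to 7.72%), and of those with a Sin3A myoblast peak 229 of 640 were (35.8%, 32.1 to 39.6%). For Sin3B the shares were 243 of 3624 in myotubes (6.71%, 5.91 to 7.57%) and 197 of 2263 in myoblasts (8.71%, 7.58 to 9.94%). The interval of Sin3A in myoblasts lay apart from the intervals of the 3 other lists. With 1 list a group no test between lists was made. Among anchored regions the shares were 2.46%, 32.0%, 2.98% and 5.06% in the same order of lists, and without doubtful regions 3.65%, 34.0%, 3.92% and 6.26%. When each list was placed by shifts fitted on the other 3 lists, 37.3% of Sin3A myoblast regions were far. For comparison, 82.6% of all positions in the kept blocks lie over 10 kb from a start.

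**Figure D1:**
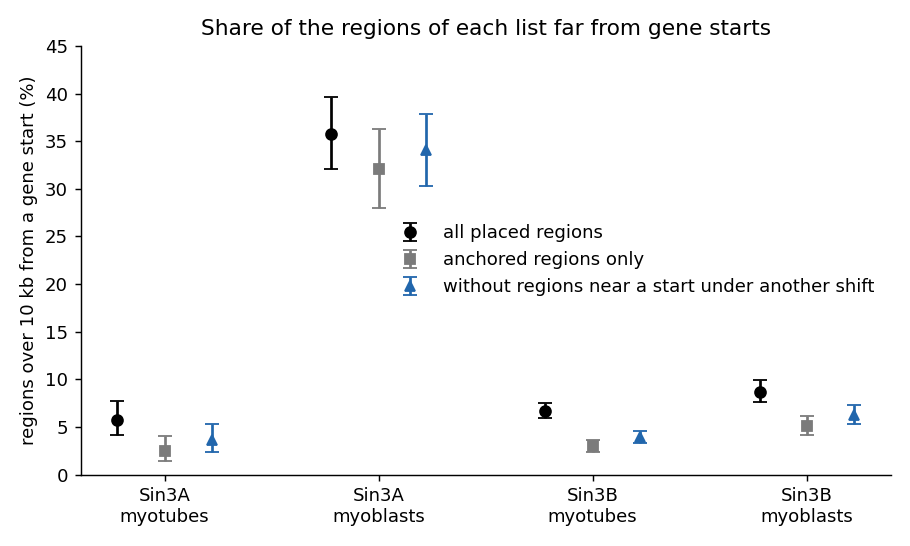
Share of the placed regions of each list that lay over 10 kb from every protein-coding start (percent, 1 list per group), for all placed regions (circles), for anchored regions (squares) and without far regions that another shift put within 1 kb of a start (triangles), with 95% Clopper-Pearson intervals. Sin3A in myoblasts stands at 35.8%, 32.0% and 34.0%, and the other lists at 8.71% or less.

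The difference was seen along the genome. The far share of Sin3A myoblast regions was above that of the regions of the other 3 lists on 19 of 20 chromosomes. On the 17 chromosomes with at least 10 placed Sin3A myoblast regions it ranged from 20% to 62.1% and was the higher on all 17. The exception was chromosome X, with 1 of 6 Sin3A myoblast regions far (16.7%) and 9 of 50 regions of the other lists (18.0%). On chromosome 6, where the shifts differed by at most 2 kb, 18 of 29 Sin3A myoblast regions (62.1%, 42.3 to 79.3%) and 14 of 223 regions of the other lists (6.28%, 3.47 to 10.3%) were far.

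Seen from the regions, all 4 lists had peaks among far and other regions, but in different shares. A Sin3A myoblast peak was present in 229 of 559 far regions (41.0%, 36.9 to 45.2%) and in 411 of 4402 other regions (9.34%, 8.49 to 10.2%), where 12.9% of all placed regions had one. The difference was 31.6 percentage points (two-sided Fisher's exact test with regions as units, Benjamini-Hochberg adjusted over 8 tests, p = 4.20e-72). The 3 other lists were less frequent among far regions. By the same Fisher's exact tests, Sin3A in myotubes had a peak in 7.51% of far and 15.6% of other regions (14.7% of all, adjusted p = 1.26e-07), Sin3B in myotubes in 43.5% of far and 76.8% of other regions (73% of all, adjusted p = 2.72e-55), and Sin3B in myoblasts in 35.2% of far and 46.9% of other regions (45.6% of all, adjusted p = 2.09e-07). Without doubtful regions all 4 differences passed too, at -9.36 points for Sin3A in myotubes, 41.4 for Sin3A in myoblasts, -43.8 for Sin3B in myotubes and -13.9 for Sin3B in myoblasts. Their size depended on the choices made. Among the 691 widest peaks of each list it was -27.4 points for Sin3A in myotubes and 50.02 for Sin3A in myoblasts. For Sin3B it was -25.1 in myotubes and -23.5 in myoblasts. The Sin3A myoblast list has 691 peaks, so this setting left it whole and cut only the 3 other lists. The shifts that define far regions were fitted on the peaks of these same lists, so the comparison is not independent of them. With shifts fitted on the other 3 lists the differences were -7.50, 33.0, -24.5 and -6.78 points in the same order. These p-values describe the lists and not cultures.

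The shares depend on each other, because every region has a peak in at least 1 list. Among the 330 far and 3991 other regions without a Sin3A myoblast peak, a comparison added after the data were seen, Sin3B in myotubes still had a peak in fewer far regions (63.0% of far and 78.8% of other regions, Fisher's exact test, p = 1.03e-09 adjusted over 5 tests), and so did Sin3A in myotubes (9.70% and 14.4%, adjusted p = 0.0256). For Sin3B in myoblasts the difference was gone, with 47.3% of far regions (41.8 to 52.8%) and 47.4% of other regions (45.8 to 48.9%).

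Far regions also had fewer lists in common. A peak in 1 list only was found for 444 of 559 far regions (79.4%, 75.8 to 82.7%) and for 2726 of 4402 other regions (61.9%, 60.5 to 63.4%), with 63.9% over all placed regions (Fisher's exact test, adjusted p = 9.28e-17). Sin3B was present at both stages in 73 far regions (13.1%) and in 1290 other regions (29.3%), with 27.5% over all (Fisher's exact test, adjusted p = 2.18e-17). Both proteins had a peak in myotubes in 25 of the 260 far regions with any myotube peak (9.62%, 6.32 to 13.9%) and in 569 of 3498 such other regions (16.3%, 15.1 to 17.5%), with 15.8% over all (Fisher's exact test, adjusted p = 0.00405). That difference missed the threshold of 0.05 when the starts of all genes were used, for the widest peaks of each list, and in blocks whose neighbour had the same shift. In myoblasts both proteins had a peak in 41 of 385 far regions (10.6%, 7.75 to 14.2%) and in 175 of 2302 other regions (7.60%, 6.55 to 8.76%), with 8.04% over all. This difference of 3.05 points did not pass Fisher's exact test (adjusted p = 0.0536). It passed with a limit of 20 kb (3.75 points), in blocks of at least 20 peaks (4.91), without chromosome X (3.23) and in blocks with a like neighbour (4.45), and it was -4.00 points and passed for the widest peaks of each list.

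**Figure D2:**
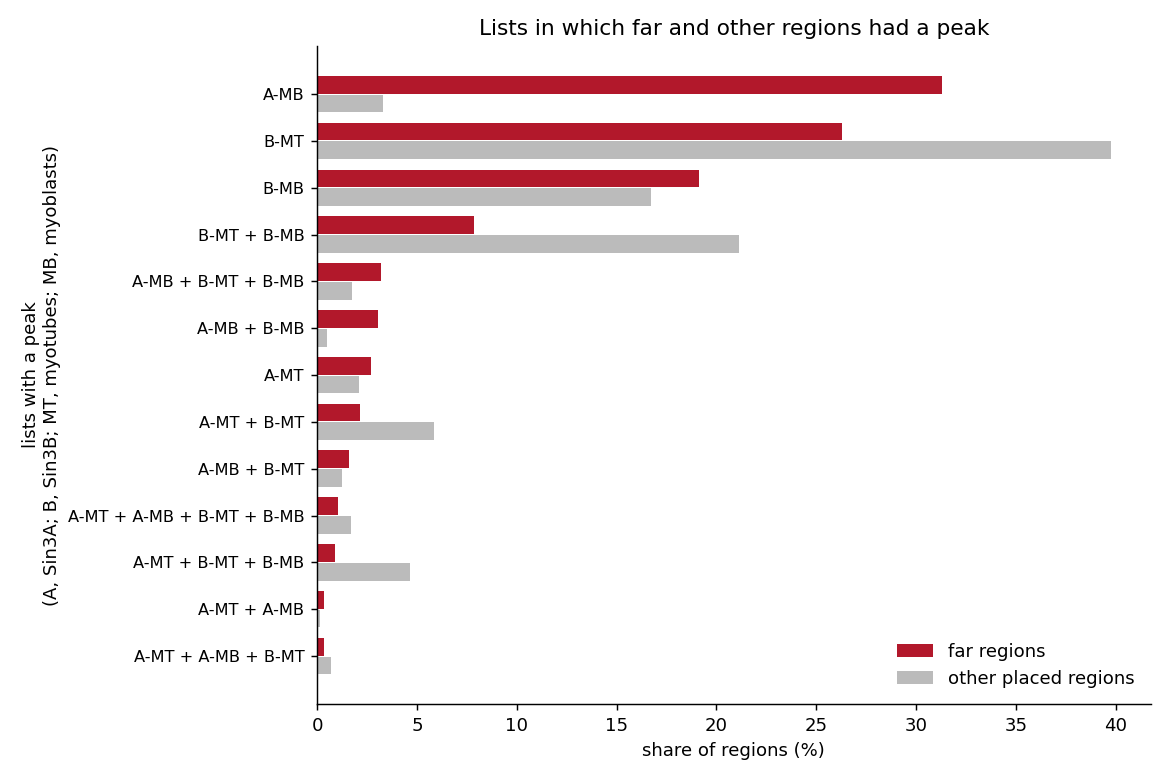
Share of the 559 far regions (red) and the 4402 other placed regions (grey) with each combination of lists found among far regions, in percent (A, Sin3A; B, Sin3B; MT, myotubes; MB, myoblasts). Sin3A in myoblasts alone made up 31.3% of far and 3.32% of other regions, and Sin3B at both stages without Sin3A 7.87% of far and 21.1% of other regions.

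Sin3A in myoblasts alone was the most frequent combination among far regions, with 175 far and 146 other regions. The far share of this combination was 54.5% (48.9 to 60.1%), and 132 of the 175 were anchored. The next was Sin3B in myotubes alone, with 147 far and 1750 other regions, and then Sin3B in myoblasts alone, with 107 far and 737 other regions. Sin3A and Sin3B together in myoblasts and at no other stage gave 17 far and 21 other regions. All 4 lists had a peak at 6 far regions and at 76 other regions.

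Some pairs of lists were compared by their intervals alone, with no test of the pairs. Of the far regions with a Sin3A myoblast peak 10 of 229 (4.37%, 2.11 to 7.88%) also had a Sin3A myotube peak, against 113 of 411 other regions (27.5%, 23.2 to 32.1%). Sin3B was present at either stage at 52 of these 229 far regions (22.7%, 17.4 to 28.7%) and at 259 of the 411 other regions (63.0%, 58.1 to 67.7%). Of regions with a Sin3B myoblast peak, 73 of 197 far regions (37.1%) and 1290 of 2066 other regions (62.4%) had a Sin3B peak in myotubes too. Of regions with a Sin3A myotube peak, 25 of 42 far regions (59.5%, 43.3 to 74.4%) and 569 of 686 other regions (82.9%, 79.9 to 85.7%) had Sin3B in myotubes. In these 4 comparisons the share was lower for far regions and the intervals did not overlap. Without doubtful regions the shares of far regions were 2.83%, 20.3%, 26.8% and 53.8% in the order given. For the reverse share, Sin3A myotube regions with a Sin3A myoblast peak, the counts were 10 of 42 far regions (23.8%, 12.1 to 39.5%) and 113 of 686 other regions (16.5%, 13.8 to 19.5%), whose intervals overlap.

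The deposited files hold no score, so the width of a peak is its only measure of its own. Sin3A myoblast peaks of far regions had a median width of 364 bp (quartiles 236 and 463), against 423 bp (329.5 and 537.5) in other regions (permutation test of the difference of medians with 100000 resamples, two-sided, adjusted over 4 lists, p = 4e-05). Sin3B myoblast peaks had a median of 377 bp (96 and 566) in far regions and 508.5 bp (391 and 668) in other regions (permutation test, adjusted p = 4e-05). Among anchored far regions the median was 161.5 bp, 347 bp below that of the other regions, and without doubtful regions the difference was -218.5 bp. The unadjusted p of 1e-05 is the smallest that these permutations can give. In myotubes the medians were 424.5 bp in far and 477.5 bp in other regions for Sin3A, and 514 bp in far and 550 bp in other regions for Sin3B. Neither passed the permutation test (adjusted p = 0.0547 for both). For Sin3B in myotubes the difference of -36 bp was -55.5 bp at 20 kb (permutation test, adjusted p = 0.0123), -163 bp for anchored far regions (adjusted p = 1.33e-05) and -96 bp without doubtful regions (adjusted p = 0.000133), where it passed. For Sin3A in myotubes the difference of -53 bp was -91.5 bp for anchored far regions (permutation test, adjusted p = 0.0544) and -78.5 bp without doubtful regions (adjusted p = 0.0254).

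Very narrow peaks stood out among far regions. Peaks under 100 bp made up 50 of 197 Sin3B myoblast peaks of far regions (25.4%, 19.5 to 32.1%) and 17 of 2066 of other regions (0.823%, 0.480 to 1.31%). The counts were 24 of 229 far and 10 of 411 other regions for Sin3A in myoblasts, 21 of 243 far and 9 of 3381 other regions for Sin3B in myotubes, and 8 of 42 far and 2 of 686 other regions for Sin3A in myotubes. Among anchored far regions, 42 of 94 Sin3B myoblast peaks were under 100 bp, and 19 of 89 Sin3B myotube peaks. For Sin3A these were 19 of 164 in myoblasts and 4 of 15 in myotubes. The medians of anchored far regions given above include these narrow peaks. The shortest peak had 5 bp. No label or file says what such intervals stand for. Without peaks under 100 bp the median of Sin3B myoblast peaks was 47 bp lower in far regions (permutation test, adjusted p = 0.0490).

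**Figure D3:**
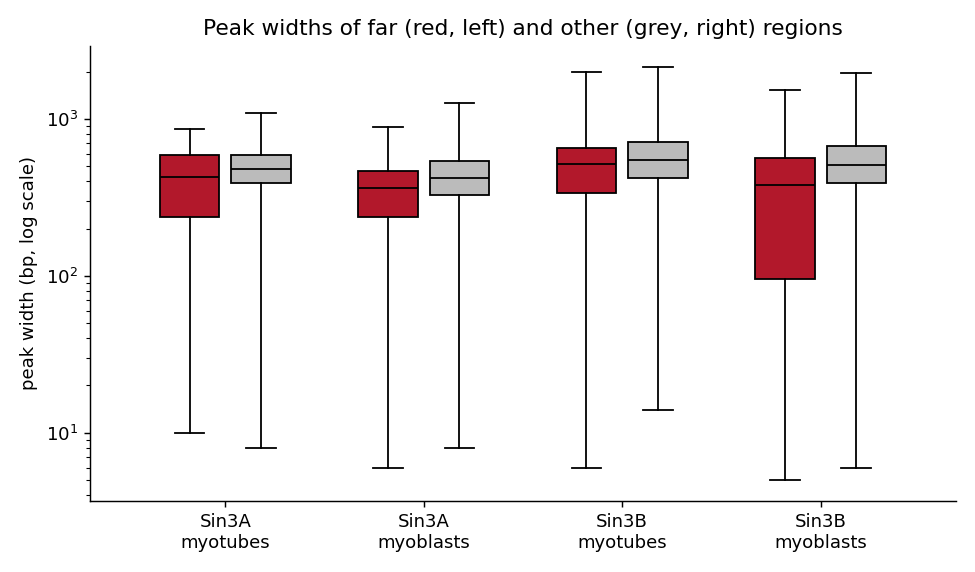
Widths of the peaks of far regions (red, left) and of other placed regions (grey, right) in each list, in bp on a log axis; boxes span the quartiles, lines mark the medians and whiskers reach the extremes. The lower quartile of Sin3B myoblast peaks was 96 bp in far regions and 391 bp in other regions.

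The median distance of a far region to the nearest protein-coding start was 35.8 kb (quartiles 20.7 and 84.2), and 120 of 559 (21.5%) lay over 100 kb away. Without doubtful regions the median was 39.5 kb, and 104 of 418 (24.9%) lay over 100 kb away. By list the medians were 30.9 kb for Sin3A in myotubes, 51.5 kb for Sin3A in myoblasts, 29.3 kb for Sin3B in myotubes and 34.7 kb for Sin3B in myoblasts. Over 100 kb away lay 7 of 42, 72 of 229, 30 of 243 and 38 of 197 far regions in that order. Among anchored far regions the medians were 17.2, 45.2, 33.8 and 40.4 kb in the same order, from 15, 164, 89 and 94 regions. Between 1 and 10 kb lay 273 (1 to 2 kb), 159 (2 to 5 kb) and 107 regions (5 to 10 kb). These count among the 4402 other regions in all comparisons, beside 3863 regions within 1 kb of a start. The member nearest to the 10-kb limit, chr5:43626135-43626568, was 10.0 kb from Cpeb2, which encodes a binding protein of messenger RNA tails, and at the start of the lncRNA Gm7854. The closest region on the other side, chr19:45724629-45724704, was 9.85 kb from Fbxw4, which encodes an F-box protein.

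**Figure D4:**
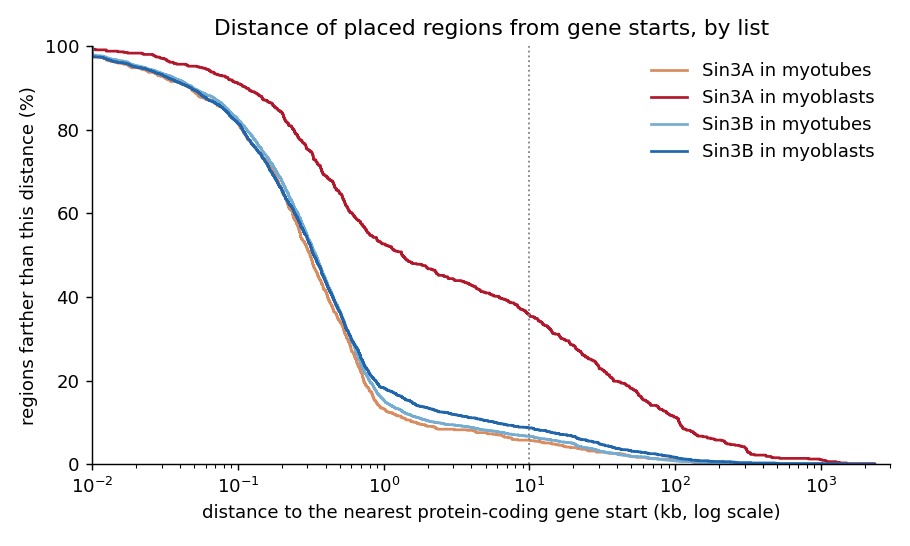
Share of the placed regions of each list (percent) that lay farther from the nearest protein-coding start than the distance on the x axis (kb, log scale); the dotted line marks the limit of 10 kb. At the limit the curve of Sin3A in myoblasts stands at 35.8% and the other 3 between 5.77% and 8.71%.

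Far regions lay inside protein-coding genes in 269 of 559 cases (48.1%, 43.9 to 52.4%), and other regions in 3504 of 4402 (79.6%, 78.4 to 80.8%), with 76.1% over all placed regions. Since regions near a start often lie in the gene itself, the better comparison is with position: of all positions over 10 kb from a start in the kept blocks, 37.6% were inside a protein-coding gene. By list the share of far regions ranged from 44.98% for Sin3A in myoblasts (38.4 to 51.7%) to 57.1% for Sin3A in myotubes (41.0 to 72.3%), intervals that overlap. Gene bodies were moved by the same shifts, so these shares are approximate. Without doubtful regions the share of far regions was 195 of 418 (46.7%, 41.8 to 51.6%).

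The anchored far regions with the widest peaks were mostly inside or beside genes of many functions. For Sin3A in myotubes they were at Erich1 (730 bp), at Mir193a (709 bp), in Phf21b (625 bp), which encodes a PHD-finger protein, and in Fam13b (481 bp). For Sin3A in myoblasts they were in Camta1 (723 bp), which encodes a calmodulin-binding transcription activator, 106 kb from Rbm26 (710 bp), in Slc38a4 (696 bp), which encodes an amino acid transporter, and at Snhg17 (616 bp). The Camta1 region (chr4:150978493-150979243) lay 257 kb from the nearest start and also held a Sin3B myoblast peak of 617 bp.

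For Sin3B in myotubes the widest were 15.5 kb from Chd2, a chromatin remodeller (chr7:80701628-80702937, 1310 bp), in Fam13b (1241 bp), 20.1 kb from Akain1 (1042 bp) and 21.7 kb from Cela3a (1036 bp), the last of which was doubtful. The Chd2 region lay about 1.1 kb from the start of Chaserr, a lncRNA known to lower Chd2 expression in mouse. For Sin3B in myoblasts they were 129 kb from Klf14 (chr6:31037206-31038620, 1415 bp), in Ywhaz (1002 bp), which encodes a 14-3-3 protein, near Fosl2 (962 bp) and at Mir21a (857 bp). The region of Fam13b appeared in 2 of these lists, and the Mir193a, Snhg17 and Mir21a regions are those described above.

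Far regions with many lists were few. Among anchored ones, the Phf21b region (chr15:84659586-84660271) had a peak in all 4 lists, with widths of 625 bp for Sin3A in myotubes, 530 bp for Sin3A in myoblasts, 324 bp for myotube Sin3B and 454 bp for myoblast Sin3B. A region in Ano2, which encodes a calcium-activated chloride channel, also had all 4 (chr6:125826928-125827245), with widths of 204, 274, 318 and 287 bp in the same order. It lay 166 kb from the nearest start. Regions in Garnl3 and Xkr6 had Sin3A in myoblasts with Sin3B at both stages. In Xkr6, a scramblase-related gene, a second far region with a Sin3B myotube peak of 339 bp lay within 50 kb of the first.

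Over 8 lists of muscle, growth and regulatory genes, 21 of 559 far regions (3.76%) had a listed gene as the nearest, and 176 of 4402 other regions, beside 3.97% of all placed regions (197 of 4961). The share was near that background and is no result about far regions. The members were chosen by position and these lists with earlier results known, so the counts only describe them. Myogenic regulators were nearest to 2 of 559 far and 29 of 4402 other regions (0.358% of far and 0.625% of all placed regions). Both far regions belonged to Eya4, a partner of homeobox transcription factors in muscle, at 173 kb and 130 kb, with Sin3B myoblast peaks of 227 and 17 bp.

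Sarcomere genes were nearest to 5 far and 12 other regions (0.894% of far and 0.343% of all placed regions). The counts are small, and 3 of the 5 lay together inside Cdc27. A Sin3B myotube peak of 451 bp lay inside Myl1 (chr1:66980713-66981163), about 10.1 kb from the start in the table. Myl1 encodes the essential light chains of fast muscle myosin and is known to use a second promoter within the gene. Myl4, the essential light chain of embryonic muscle and atrium, had 3 far regions at 10.9 to 24.99 kb, inside the neighbouring Cdc27 and all from myoblast lists. The anchored one had a Sin3A peak of 463 bp (chr11:104389278-104389740). The fifth, at Cavin4, was not anchored and doubtful. Genes of calcium handling, membrane and fusion were nearest to 2 far and 19 other regions (0.358% of far and 0.423% of all placed regions). Of these genes, Mylk4 had a Sin3A myoblast peak of 392 bp at 220 kb. Kcnj12, an inwardly rectifying potassium channel, had a Sin3B myoblast peak of 84 bp at 27.1 kb.

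AP-1 and serum response factors were nearest to 4 far and 23 other regions (0.716% of far and 0.544% of all placed regions). The widest of the 4 lay 40.7 kb from Fosl2, a subunit of AP-1 (chr5:32438132-32439341), with Sin3B peaks of 597 bp in myotubes and 962 bp in myoblasts and none for Sin3A. The region was not doubtful, but the shift of its block placed only 33 of 63 peaks and the next shift 23. Its distance is therefore uncertain. In the region inside Nr4a2, an orphan nuclear receptor (chr2:56966825-56967382), a Sin3B myotube peak of 558 bp met a Sin3A myoblast peak of 217 bp. Klf6 had a Sin3A myoblast peak of 300 bp at 138 kb and Mycn a Sin3B myoblast interval of 8 bp at 14.0 kb.

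Genes of matrix, adhesion and cytoskeleton were nearest to 5 far and 23 other regions (0.894% of far and 0.564% of all placed regions). All 5 were from myoblast lists. Cd44, the receptor of hyaluronan, and Myh9, a non-muscle myosin heavy chain, had Sin3A peaks of 213 and 193 bp. The other 3, at Fn1 and Ahnak, were not anchored and doubtful, and so was the only far region of a signalling gene, Tgfb2. Cell cycle genes had 1 far region and 33 other regions (0.179% of far and 0.685% of all placed regions). The far one lay nearest to Mcm5, a subunit of the replicative helicase, and held a Sin3B myoblast peak of 161 bp. Tgfb2, Fn1, Ahnak, Cavin4, Mycn and the 2 regions of Myl4 that were not anchored were named after their values were seen.

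Some far regions lay close together. Within 50 kb of another far region lay 142 of 559 (25.4%), in 56 groups of at least 2 regions, of which 16 had at least 3. Of the 142, 25 were anchored and 51 doubtful. The groups below were chosen after their values were seen. The largest, 7 regions over 23.1 kb between Wnt7b and Ppara (chr15:85487524-85510583), held peaks of 3 lists and none of Sin3A in myotubes, and 2 of its 7 regions were doubtful. Next came 6 regions over Malat1 and Neat1 (chr19:5798743-5845529), a pair of abundant nuclear lncRNAs, the second of which is known to build paraspeckles. None of these 6 was anchored. At the end of Neat1 that faces Frmd8, 2 regions each had peaks of Sin3A in myoblasts (889 and 338 bp), Sin3B in myotubes (1124 and 571 bp) and Sin3B in myoblasts (423 and 537 bp), and the second lay about 0.28 kb from the Neat1 start. Over Malat1, 2 Sin3B myotube peaks (1291 and 1021 bp) and 1 Sin3B myoblast peak (413 bp) lay side by side with no peak of Sin3A, the one of 1021 bp in a doubtful region.

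**Figure D5:**
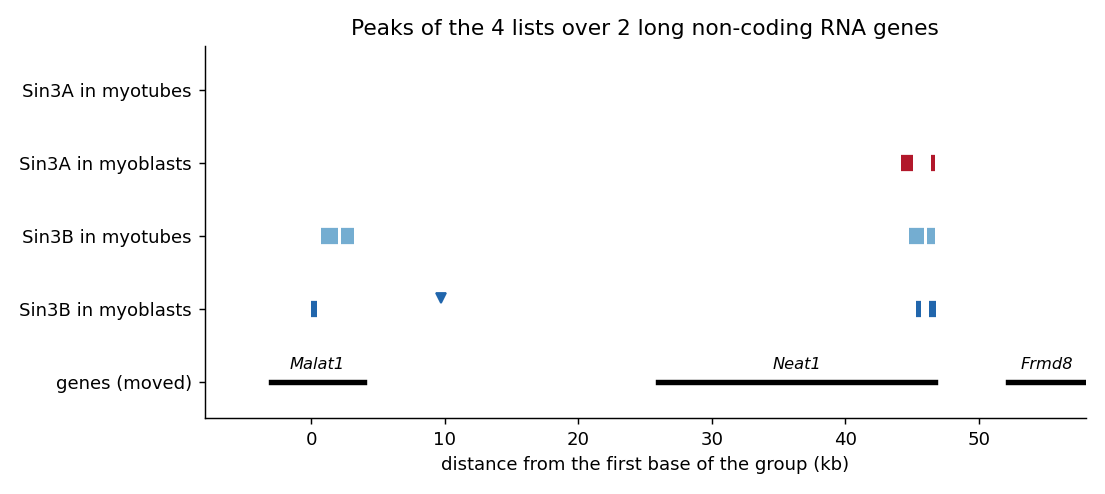
Peaks of the 4 lists across the group of 6 far regions over Malat1 and Neat1, drawn to scale in kb from the first base of the group, with genes moved by the shift of their block; a triangle marks a Sin3B myoblast interval of 18 bp. Sin3A in myoblasts and both Sin3B lists have peaks at the Neat1 end on the right, Sin3B alone has peaks over Malat1, and Sin3A in myotubes has none.

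Another 6 regions lay inside Mapk6, a protein kinase gene, within 11.4 kb (chr9:75234724-75246126), and 5 of these 6 held a Sin3B myoblast peak. Of the 6, 2 were doubtful. In Vmp1 the Mir21a region had a neighbour on each side, 1 with a Sin3A myoblast peak of 288 bp and 1 with Sin3B peaks of 775 bp in myotubes and 526 bp in myoblasts. A group of 5 regions over the ribosomal RNA copy Rn18s-rs5 (chr17:39979955-39985679) had Sin3A myoblast peaks in all 5, Sin3B myoblast peaks in 3 and no myotube peak. Ribosomal RNA genes exist in many near-identical copies, so reads there cannot be assigned to 1 copy. Finally, 3 Sin3A myoblast intervals of 19 to 27 bp lay within 17.02 kb near the start of chromosome 9 (chr9:3019323-3036340), the nearest protein-coding start being 299 kb away. None of the 3 was anchored, and the shift of their block rests on 8 peaks, of which it placed 5 near a start. What such short intervals stand for is not known. Leaving out all far regions within 50 kb of another, the far share of Sin3A myoblast regions was 32.0%.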

How the data were processed

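Sin3A and Sin3B chromatin immunoprecipitation had been sequenced in C2C12 myotubes and myoblasts. The authors deposited peaks as intervals of chromosome, start and end, per the files with no header, score, height or p-value. Neither labels nor files name an aligner, a peak caller and its threshold or a genome build, or say whether inputs were used. Depth is unknown. The 11 files held 4 distinct lists, and each was counted once (n = 1 list per group). Tests over regions describe these lists, and intervals cover counting error only.

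Peaks overlapping by 1 bp were merged. Gene starts came from RefSeq tables of GRCm38.p6. Of 21900 protein-coding genes 17492 had a strand and promoters, and for the other 4408 both ends counted as starts. Shifts from -8 to 8 Mb were tried in steps of 1 kb for each 10-Mb block, and the smallest was taken at ties. The 176 regions of the 11 blocks not kept were left out, and 120 kept blocks had under 20 peaks. Shares were compared by two-sided Fisher's exact tests (8, Benjamini-Hochberg) and widths by permutation of medians (100000 resamples, 4 lists), with 95% Clopper-Pearson intervals. Far regions were also moved by the shifts of neighbouring blocks that differed by over 2 kb and by a shift fitted on the next 5 regions on each side, where this placed more of them. The placement was also run on simulated peaks with a constant shift in each block. That run could not show errors where the shift changes inside a block.

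The members and gene lists were chosen with earlier results of these data known. Named were anchored far regions: for each list the 4 with the widest peak, the 6 with most lists and up to 3 for each gene list. By the same rule came 2 groups of anchored regions, at Mir193a and in Xkr6, and the regions nearest to the limit. Regions at non-coding RNA genes, all other groups and the gene list regions that were not anchored, with the fourth of a list (Mycn), were added after their values were seen. The result of 1 gene list is not reported here. Alternatives were limits of 5 and 20 kb, 5-Mb blocks, blocks of at least 20 peaks, anchored regions, starts of all genes, shifts fitted on the other lists, the 691 widest peaks of each list and leaving out chromosome X, with others added later. The tools were scipy 1.17.1, pandas 2.3.3 and numpy 2.4.6 under Python 3.11.15, with matplotlib 3.10.9 for figures.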

Additional observations from a re-analysis of the deposited data

Results flagged for a closer look

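For Sin3A the difference between far and other regions ran in opposite directions at the 2 stages. The share of regions with a Sin3A peak was -8.07 percentage points in far minus other regions in myotubes (7.51% of far and 15.6% of other regions) and 31.6 points in myoblasts (41.0% of far and 9.34% of other regions). With 1 list per stage the difference between the stages was not tested. A second antibody lot was listed for 1 of the 2 Sin3A myoblast samples, whose files were identical, and its part in the result was not tested.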

How the results depend on the processing

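Of 218 alternative values, 149 came from tests and 69 were shares without a test. Of the tests 136 kept their direction and side of the threshold, 4 no longer passed, 8 newly passed and 1 reversed. The difference in Sin3A myoblast peaks kept both over 16 alternatives (27.2 to 50.02 points). The 50.02 points are those for the widest peaks, a setting that cut only the 3 other lists. The cause of the changes below was not tested. Far shares are given over all regions, then for Sin3A in myotubes, Sin3A in myoblasts, Sin3B in myotubes and Sin3B in myoblasts where they left the main interval. With a limit of 5 kb they were 13.4% over all, then 40.9%, 8.17% and 10.4% for the last 3 lists. With 20 kb they were 8.65%, 3.98%, 28.4%, 5.02% and 6.67%. With 5-Mb blocks they were 9.27% over all, 4.05% for Sin3A in myotubes, and 4.597% and 6.63% for Sin3B. Counting anchored far regions of all regions gave 5.99%, 2.06%, 25.6%, 2.46% and 4.15%, and of anchored regions 7.30%, 2.46%, 32.0%, 2.98% and 5.06%. Starts of all genes gave 8.56% over all, then 28.5%, 4.85% and 6.94% for the last 3 lists. Shifts fitted on the other lists gave 8.44% and 9.95% for Sin3B. Blocks with a neighbour of the same shift gave 9.64% over all, and 5.15% and 7.43% for Sin3B. Without peaks under 100 bp it was 9.93% over all and 6.69% for Sin3B in myoblasts. Both ends of every gene as starts gave 31.3% for Sin3A in myoblasts. Without far regions within 1 kb of a start under another shift they were 8.67% over all, 3.65% for Sin3A in myotubes, and 3.92% and 6.26% for Sin3B. Without far regions within 50 kb of another the shares were 8.65%, 3.65%, 32.0%, 4.65% and 6.56%.

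The difference for both proteins in myotubes (-6.65 points) no longer passed with starts of all genes (-4.95), the widest peaks (-4.11) or blocks with a like neighbour (-3.29), with adjusted Fisher p-values from 0.00180 to 0.486 over 15 alternatives. In myoblasts it passed at 20 kb (3.75), in blocks of at least 20 peaks (4.91), without chromosome X (3.23) and in blocks with a like neighbour (4.45), and reversed for the widest peaks (-4.00). The Sin3B myoblast difference was -0.109 points among regions without a Sin3A myoblast peak. The width difference of Sin3B myotube peaks passed at 20 kb (-55.5 bp), for anchored regions (-163 bp) and without regions near a start under another shift (-96 bp), and so did that of Sin3A myotube peaks in the last case (-78.5 bp). Without peaks under 100 bp the myotube differences were -14 bp for Sin3B and -4 bp for Sin3A, and neither passed. Leaving out a replicate changes nothing, as the files of a group are identical. No paired analysis was possible because each group has 1 distinct list. Depth is unknown, the lists limit what can be seen, and starts missing from the tables would make near regions far.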
